A study of Mus musculus with 90 samples.

Results

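The genes described here mark the early steps of the oligodendrocyte lineage: Enpp6, Pdgfra, Cspg4, Bmp4, Gpr17, Olig1, Olig2 and Sox10. They were taken as every array probe that the platform annotation names for these 8 symbols, out of 13076 symbols with a named probe. Of the 8, 7 had a probe, with 1 probe each, and Sox10 had none named here. The Olig2 probe lay above background on 2 of 90 arrays and did not enter the main tests. So 6 of the 8 genes were tested among 9741 genes in all, each of the 6 detected on 90 of 90 arrays.

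Oligodendrocyte precursor cells are the dividing glia that give rise to the myelin-forming cells of the brain throughout life. They carry the receptor for platelet-derived growth factor A (Pdgfra) and the proteoglycan NG2 (Cspg4), and they depend on the transcription factors Olig1, Olig2 and Sox10. As a precursor commits to differentiation it loses Pdgfra and Cspg4 and passes through a short stage with the receptor Gpr17, followed by a stage with the choline-releasing phosphodiesterase Enpp6, before the genes of compact myelin dominate. Bmp4 encodes a secreted bone morphogenetic protein, a signal known to hold precursors back from maturing, and it is itself expressed by committed precursors. Pdgfra, Cspg4 and Bmp4 are also known from fibroblasts and from the mural cells of blood vessels.

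All animals, controls included, carried the APP/PS1 transgenes, which lead to amyloid deposits in the brain. Mice without the transgenes or without an ASO were not analysed here. Each mouse received an antisense oligonucleotide (ASO) through a cannula in the right lateral ventricle, at 40 µg per day in 6 µL, either the CD33 ASO, which targets the microglial receptor gene Cd33, or a non-target control ASO. The mice were 18 weeks old when infusion began, infusion ran for 14 or for 28 days, and all brains were collected at the age of 22 weeks. After 2 weeks the 14-day animals lost their pumps and the 28-day animals received new ones, so the length of infusion, the pump-free interval before collection and the pump exchange cannot be told apart. RNA of the left hippocampus and of a left frontal piece, called frontal cortex in the labels, was hybridised to Illumina bead arrays. The hippocampus gave 9 arrays for the control ASO and 9 for the CD33 ASO at 14 days, and 13 and 13 at 28 days. The frontal cortex gave 9 and 9 at 14 days, and 14 and 14 at 28 days. The arrays of a tissue came from separate animals, and 43 of 47 animals gave both tissues.

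Between 42.8% and 51.6% of probes were detected on an array. The targeted gene, Cd33, lay between 4.64 and 6.58 on hippocampal arrays of the CD33 ASO groups and between 6.25 and 7.03 on those of the control groups. The differences were -1.29 at 14 days (limma, adjusted p = 2.8e-05) and -1.46 at 28 days (adjusted p = 5.48e-09), and in the frontal cortex -0.69 at 14 days (adjusted p = 0.327, not passing) and -0.90 at 28 days (adjusted p = 5.08e-05). In 1 animal labelled CD33 ASO at 28 days (hippocampal replicate 11, cortical replicate 12), Cd33 lay within the control range in both tissues, so each member's result was also computed without it. Markers of striatal neurons were higher in the frontal pieces in 6 of 6 genes, by a median of 2.69, and choroid plexus markers were higher in the hippocampal pieces in 7 of 7 genes. In whole tissue, fewer cells of a type and less RNA per cell cannot be told apart. The place of a probe within its transcript was not used here. Values below are background-corrected, quantile-normalized log2 intensities. They rank arrays for 1 probe and do not rank genes against each other.

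The sequences around the start sites of Enpp6 and of Nkx2-2 are shown because these were the member and the other lineage gene with the largest differences between infusion times in the hippocampus. Both are the 300 bases from 250 before to 50 after the start in RefSeq (GRCm38.p6), Enpp6 at chr8:46986637-46986936 on the plus strand, a start that lies within the gene span given below, and Nkx2-2 at chr2:147186353-147186652 on the minus strand. Searched on both strands were CANNTG, the E-box letters read by basic helix-loop-helix factors such as Olig1 and Olig2, and ACAAAG and ACAATG, core letters read by SOX factors. No match overlapped another motif. Capitals mark the matches.
Enpp6: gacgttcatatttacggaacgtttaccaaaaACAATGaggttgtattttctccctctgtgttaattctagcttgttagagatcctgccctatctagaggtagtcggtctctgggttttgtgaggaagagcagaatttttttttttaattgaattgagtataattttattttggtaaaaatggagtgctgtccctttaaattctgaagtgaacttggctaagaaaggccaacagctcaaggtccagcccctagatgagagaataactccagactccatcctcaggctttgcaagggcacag
Nkx2-2: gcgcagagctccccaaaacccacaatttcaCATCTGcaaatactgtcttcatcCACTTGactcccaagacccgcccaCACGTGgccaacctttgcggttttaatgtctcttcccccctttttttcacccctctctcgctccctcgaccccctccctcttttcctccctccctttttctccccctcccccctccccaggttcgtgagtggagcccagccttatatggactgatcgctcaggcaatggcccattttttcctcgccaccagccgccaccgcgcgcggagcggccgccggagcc

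The Enpp6 window held 1 ACAATG and no CANNTG, and the Nkx2-2 window held 3 CANNTG and neither SOX core. Among 32851 windows of the same length, 72.3% held CANNTG, 18.7% ACAAAG and 12.6% ACAATG. Of the 8 members, 5 had a start-site sequence in the table.

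The first comparison set 28 days of infusion against 14 days, averaged over both ASOs, within each tissue. In the hippocampus Enpp6 was the member that fell, to 69.5% of its 14-day level, and Gpr17 lay at 74.2% of its 14-day level without passing the test. Among the 6 members 1 fell and 0 rose, where 1.08% of all genes tested passed, 0.482% lower and 0.595% higher. An unadjusted p below 0.05 was reached by 3 of the 6 and by 1482 of all 9741 genes. In the frontal cortex 0 of 6 passed in limma's fit, where 0% of all genes passed. There 3 of 6 had an unadjusted p below 0.05, as did 770 of all 9741 genes. All 6 differences were below 0, a count not set against the share over all genes.

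**Figure D1:**
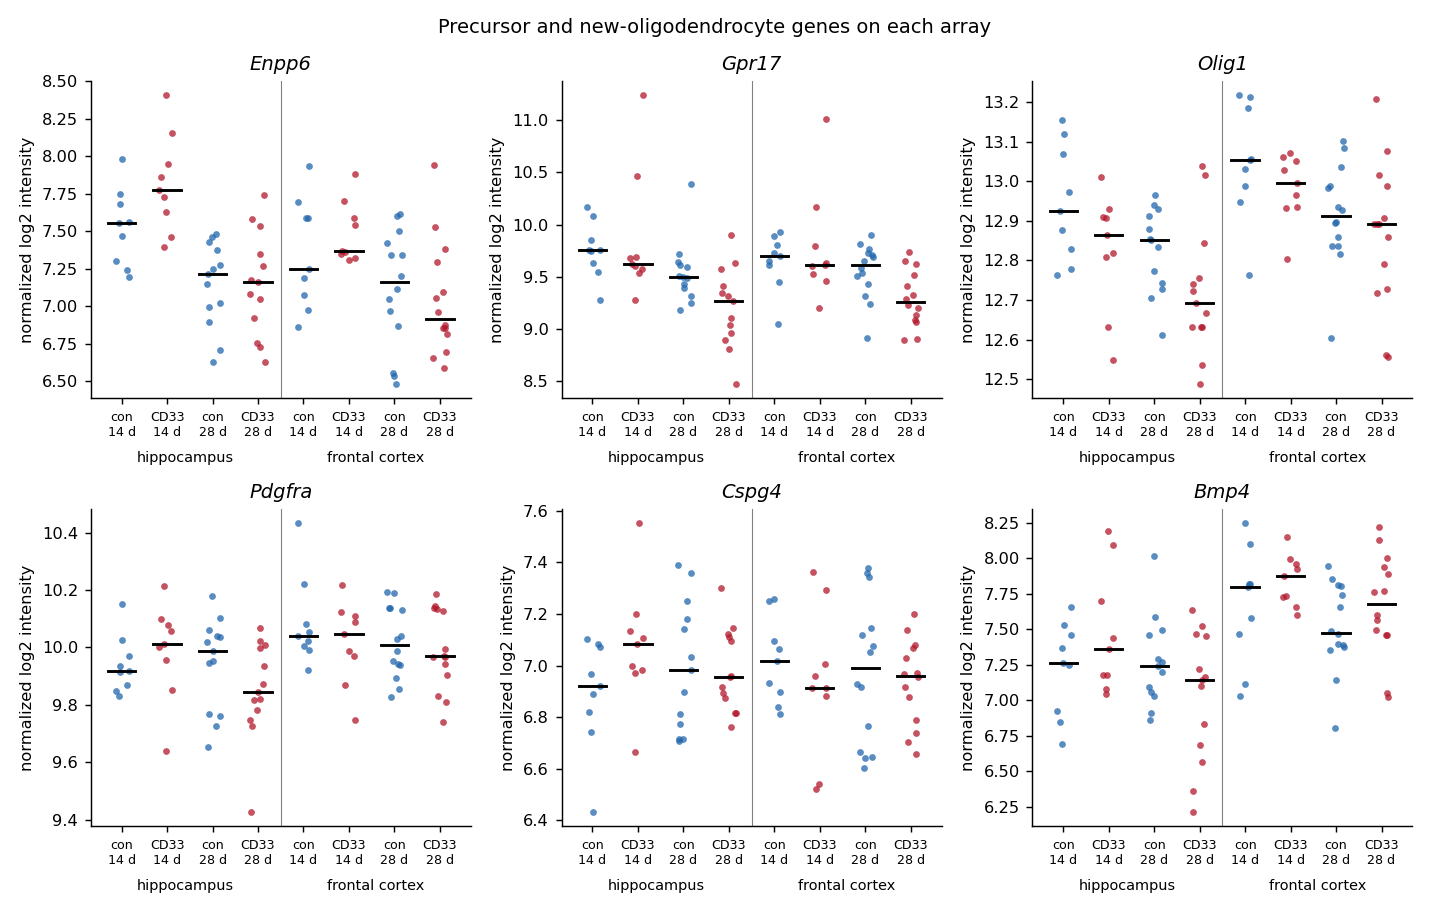
Normalized log2 intensity (y axis) of the 6 tested genes on each array, by tissue, ASO and infusion time (x axis). Points are arrays, blue for the control ASO and red for the CD33 ASO, and black bars are group medians. The 14-day medians of Enpp6 lie above the 28-day medians in both tissues, and the 2 highest Gpr17 points of either tissue's 14-day CD33 ASO group come from the same 2 animals.

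Enpp6 (chromosome 8, 46939197 to 47096762, GRCm38.p6) encodes the phosphodiesterase of newly formed oligodendrocytes. In the hippocampus its 18 arrays at 14 days ran from 7.20 over a median of 7.66 to 8.41, and its 26 arrays at 28 days from 6.63 over 7.17 to 7.74. The ranges overlap, but 25 of 26 arrays at 28 days lay below the 14-day median, 14 lay below the lowest 14-day array, and 7 of 18 arrays at 14 days lay above the highest 28-day array. The difference was -0.52 ± 0.09 (SE; 95% interval -0.71 to -0.34; limma, adjusted p = 0.00287), the 2nd smallest p of 9741 genes. It was below 0 on 6 of 6 hippocampal chips, from -0.74 to -0.23.

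In the frontal cortex Enpp6 ran from 6.86 over 7.37 to 7.94 at 14 days and from 6.48 over 7.05 to 7.94 at 28 days. Here 21 of 28 arrays at 28 days lay below the 14-day median, and no 14-day array lay above the highest 28-day array. The difference of -0.34 ± 0.10 (adjusted p = 0.446) did not pass, although it was below 0 on 6 of 6 cortical chips. The duration effects of the tissues differed by 0.19 (95% interval -0.07 to 0.44; adjusted p = 0.791), and this difference did not pass. A fit on the means of both tissues in the 43 animals that gave both was added after these values had been seen. In it Enpp6 fell by 0.43 on the log2 scale (SE 0.08, limma, adjusted p = 0.0138), where 0.205% of all genes passed. These means include the hippocampal arrays, so this call is not separate evidence.

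Enpp6 was lower at 28 days under either ASO. With the CD33 ASO, the 9 hippocampal arrays at 14 days ran from 7.40 over 7.77 to 8.41 and the 13 at 28 days from 6.63 over 7.16 to 7.74. With the control ASO, the values ran from 7.20 over 7.56 to 7.98 at 14 days and from 6.63 over 7.21 to 7.48 at 28 days. The groups overlap under both ASOs. The difference was -0.67 ± 0.13 with the CD33 ASO (adjusted p = 0.0379, where 0.0308% of genes passed) and -0.38 ± 0.13 with the control ASO (adjusted p = 0.262, where 0.0205% passed). The call with the CD33 ASO was lost under 6 of 14 alternatives and without 13 of 44 single arrays, and without the 2 animals of highest Gpr17 described below the difference was -0.53 (adjusted p = 0.480). The ASO effects at the 2 durations differed by -0.28 (95% interval -0.65 to 0.08; adjusted p = 0.976). Ordered by group mean, the 4 groups of 14 days, from 7.82 to 7.35, all stood above the 4 groups of 28 days, from 7.15 to 7.04. The arrays of neighbouring groups in that order overlap, with SDs from 0.20 to 0.39.

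Gpr17 (chromosome 18, 31942999 to 31949890) encodes a G protein-coupled receptor of committed precursors. In the hippocampus it ran from 9.27 over 9.68 to 11.24 at 14 days and from 8.47 over 9.40 to 10.39 at 28 days. At 28 days 23 of 26 arrays lay below the 14-day median and 9 below the lowest 14-day array. The difference was -0.43 ± 0.12 (95% interval -0.67 to -0.19; adjusted p = 0.0594). This sits at the threshold. It passed with array weights (-0.37, adjusted p = 0.0471) and without the animal whose Cd33 lay in the control range (-0.45, adjusted p = 0.0414). It also passed when any of 5 single arrays was left out. Under the other 12 of 14 alternatives it missed, up to an adjusted p of 0.129. Over the 14 alternatives the difference ran from -0.49 to -0.29. It was smallest in size, at -0.29, without the animals of highest Gpr17 described below.

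In the frontal cortex Gpr17 ran from 9.05 over 9.64 to 11.02 at 14 days and from 8.89 over 9.47 to 9.90 at 28 days. Of the 28-day arrays, 19 of 28 lay below the 14-day median. The difference was -0.29 ± 0.10 (adjusted p = 0.466). Over the alternatives it ran from -0.30 to -0.17, and was smallest in size without the same animals of highest Gpr17. These animals belong to the 14-day CD33 ASO group. With the CD33 ASO alone the differences were -0.64 ± 0.17 in the hippocampus (adjusted p = 0.153) and -0.49 ± 0.14 in the cortex (adjusted p = 0.622), and with the control ASO -0.22 ± 0.17 and -0.09 ± 0.14. None of these 4 passed, and the differences between the ASO effects, -0.43 (adjusted p = 0.972) and -0.40 (adjusted p = 1), did not pass either.

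Olig1 (chromosome 16, 91269769 to 91271939) encodes a transcription factor of the whole lineage. In the hippocampus it ran from 12.55 over 12.89 to 13.15 at 14 days and from 12.49 over 12.75 to 13.04 at 28 days. In the cortex it ran from 12.76 over 13.03 to 13.22 and from 12.56 over 12.89 to 13.21. The 28-day arrays lay below the 14-day median in 20 of 26 and 23 of 28 cases. The differences, -0.11 ± 0.04 (adjusted p = 0.199) and -0.13 ± 0.04 (adjusted p = 0.469), did not pass. With the replicate number as a block the cortical difference was -0.18 and passed (adjusted p = 0.0279).

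Pdgfra (chromosome 5, 75151322 to 75198206) differed by -0.07 ± 0.05 in the hippocampus and -0.05 ± 0.04 in the cortex, and Cspg4 (chromosome 9, 56865104 to 56899870) by 0.01 ± 0.06 and -0.02 ± 0.07. The 95% interval of Cspg4 in the hippocampus, -0.13 to 0.14, does not include a difference as large as that of Enpp6. Bmp4 (chromosome 14, 46383525 to 46390669) differed by -0.20 ± 0.12 in the hippocampus (adjusted p = 0.437) and -0.16 ± 0.10 in the cortex (adjusted p = 0.703), below 0 on 6 of 6 and 5 of 6 chips.

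**Figure D2:**
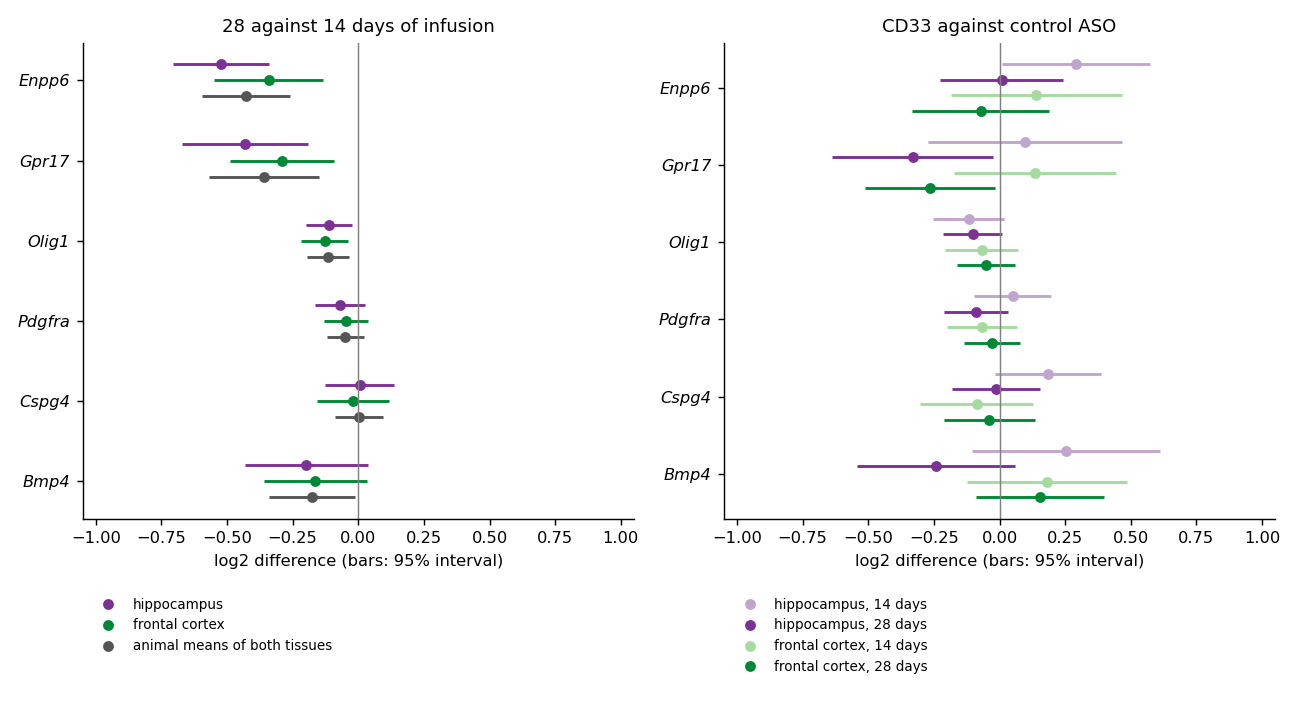
Log2 differences (x axis) of the 6 tested genes (y axis), with 95% intervals as bars, between 28 and 14 days of infusion (left) and between the CD33 and the control ASO (right). On the left, Enpp6 in the hippocampus lies at -0.52 and Cspg4 at 0.01; on the right, the intervals of Gpr17 at 28 days lie below 0 in both tissues but neither value passed after adjustment.

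Other lineage genes were read from lists. Of 8 measured markers of committed precursors and new oligodendrocytes, 2 fell in the hippocampus and 0 rose, with a list median of -0.15 against -0.01 over all genes tested. Nkx2-2, a homeodomain factor that promotes differentiation, ran from 7.59 over 8.03 to 8.76 at 14 days and from 7.16 over 7.71 to 8.20 at 28 days. It fell by 0.35 on the log2 scale (SE 0.07, adjusted p = 0.00932), and the call held under 14 of 14 alternatives. Bcas1, a marker of early myelinating cells, ran from 13.17 over 13.44 to 13.78 and from 12.82 over 13.20 to 13.72 and fell by 0.22 on the log2 scale (adjusted p = 0.0384). The Bcas1 call was lost under 3 of 14 alternatives and without 22 of 44 single arrays, at adjusted p up to 0.0681.

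In the frontal cortex Nkx2-2 differed by -0.26 (adjusted p = 0.403) and Bcas1 by -0.19 (adjusted p = 0.296), and 0 of 8 genes of the list passed. On the animal means of both tissues these 2 genes also passed, Nkx2-2 at -0.31 (limma, adjusted p = 0.0177) and Bcas1 at -0.21 (adjusted p = 0.0308). Those means include the hippocampal arrays in which the 2 genes had passed, so they are not separate evidence. Of 6 other precursor markers 0 passed in either tissue and all 6 lay below 0 in both (list median -0.12 in the hippocampus and -0.11 in the cortex), with the smallest p in the hippocampus for Cspg5 (-0.18, adjusted p = 0.0674) and Matn4 (-0.15, adjusted p = 0.0928).

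Of 18 genes of myelin and mature oligodendrocytes 0 passed in either tissue, and 14 lay below 0 in each. Their hippocampal median was -0.06, with the smallest p for Apod, an apolipoprotein (0.29, adjusted p = 0.135), and Mag, a myelin glycoprotein (-0.17, adjusted p = 0.147). Of 7 other transcription factors of the lineage 0 passed (Sox8 -0.17, adjusted p = 0.126), of 4 PDGF ligands and receptors 0 passed, of 15 BMP pathway genes 0 passed, and of 6 proliferation genes 0 passed. Microglial markers lay below 0 in 6 of 6 genes in the hippocampus (median -0.12, none passing), with the mean log2 level of the list from 8.87 to 9.61 at 14 days and from 8.71 to 9.29 at 28 days. Astrocyte markers lay below 0 in 6 of 8 genes (median -0.09, none passing), and of 7 endothelial markers Tek fell (-0.22, adjusted p = 0.0428). The part of these cells in the lower Enpp6 was not tested. Counts of list genes below 0, here and in other paragraphs, were not set against the share over all genes.

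**Figure D3:**
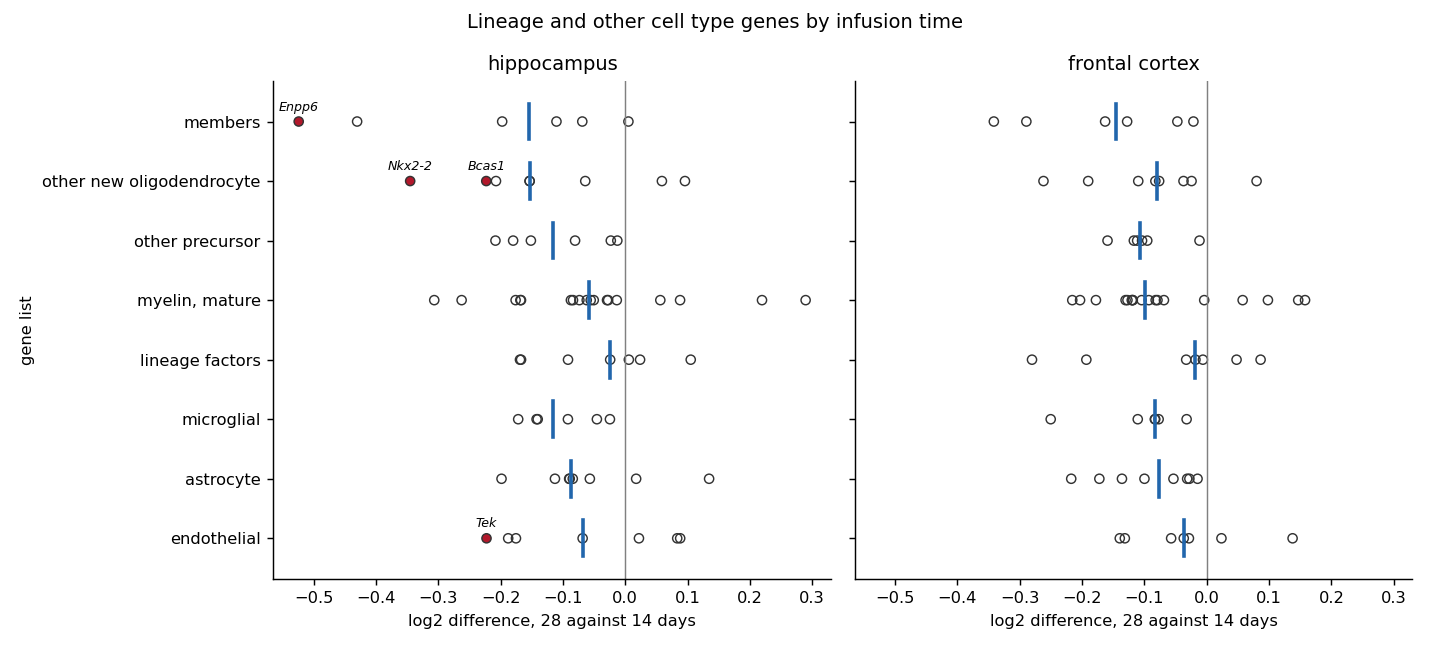
Log2 difference between 28 and 14 days of infusion (x axis) for each measured gene of 8 lists (y axis), in the hippocampus (left) and the frontal cortex (right). Filled red points passed at an adjusted p of 0.05, open points did not, and blue bars are list medians; the 4 genes that passed are Enpp6, Nkx2-2, Bcas1 and Tek, all in the hippocampus.

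The next comparison set the CD33 ASO against the control ASO. No member passed in any ASO contrast of limma's fit. In the hippocampus 0 of 6 passed at 14 days, where 0.0205% of all genes passed (0.0103% in each direction). There 0 of 6 passed at 28 days, where 0.411% of genes passed (0.164% higher, 0.246% lower), and 0 of 6 on the mean of both durations, where 0.678% passed (0.38% higher, 0.298% lower). In the frontal cortex 0 of 6 passed at 14 days (0% of all genes), at 28 days (0.472%, with 0.154% higher and 0.318% lower) and on the mean (0.636%, with 0.236% higher and 0.4% lower). An unadjusted p below 0.05 was reached by 1 member in the hippocampus at 14 days and 1 at 28 days. Among all 9741 genes it was reached by 577 and 909. In the cortex it was reached by 0 members at 14 days and 1 at 28 days, against 492 and 841 of all genes. On the means of both durations it was reached in the hippocampus by 1 member, Olig1, against 908 of all genes. In the cortex 0 members reached it on these means, against 1043 genes.

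The values at single durations belong to Enpp6 and Gpr17. Enpp6 was higher with the CD33 ASO in the hippocampus at 14 days by 0.29 ± 0.14 (adjusted p = 0.833), with groups that overlap as given above. Gpr17 at 28 days in the hippocampus ran from 9.18 over 9.50 to 10.39 with the control ASO and from 8.47 over 9.26 to 9.90 with the CD33 ASO, a difference of -0.33 ± 0.15 (95% interval -0.64 to -0.02; adjusted p = 0.478). In the cortex at 28 days it ran from 8.91 over 9.61 to 9.90 and from 8.89 over 9.26 to 9.74, a difference of -0.26 ± 0.12 (adjusted p = 0.524). The CD33 ASO medians lie lower in both tissues, the groups overlap, and the tissues share animals, so they are not separate evidence.

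Without the 2 animals of highest Gpr17 described below, the 14-day differences of Gpr17 turned from 0.10 to -0.19 in the hippocampus and from 0.13 to -0.10 in the cortex, none of them passing. Olig1 was lower with the CD33 ASO in all 4 contrasts, from -0.12 to -0.05, with adjusted p from 0.593 to 0.998. The differences of Pdgfra ran from -0.09 to 0.05, of Cspg4 from -0.09 to 0.19 and of Bmp4 from -0.24 to 0.25. On animal means of both tissues 0 of 6 members passed, where 0.924% of all genes passed (0.441% higher, 0.482% lower), and Olig1 was the lowest by unadjusted p (-0.09 ± 0.04, adjusted p = 0.348).

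Later genes of the same lineage gave calls in this comparison. On animal means, 6 of 18 myelin and mature oligodendrocyte genes fell with the CD33 ASO and 0 rose, with a list median of -0.11 against 0.00 over all genes. They were Cldn11, the tight-junction claudin of myelin (-0.15, adjusted p = 0.000745), Hapln2, a link protein of the node (-0.28), Tspan2 (-0.20), Apod (-0.33), Mog, a myelin surface glycoprotein (-0.30), and Mal (-0.28). Of 8 other new-oligodendrocyte markers 0 passed (Bcas1 -0.13, adjusted p = 0.196), and of 6 other precursor markers 0 passed. Whether the ASO effects on myelin genes and on the members differ was not tested. Within a tissue, 5 of 18 myelin genes fell in the hippocampus and 1 of 18, Apod, in the cortex, on the mean of both durations.

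Among the BMP pathway genes Bmp7, a ligand related to Bmp4, fell with the CD33 ASO in the cortex by 0.44 at 28 days (SE 0.09, adjusted p = 0.00211), and 1 of 15 passed there. In the hippocampus Bmp7 differed by -0.64 ± 0.18 (adjusted p = 0.15), and 0 of 15 passed. Mcm2, a replication licensing gene, rose in the hippocampus at 28 days by 0.40 (adjusted p = 0.0302), 1 of 6 proliferation genes. Some markers of vessels moved with the same contrast. Of 7 endothelial markers Vwf (-0.92) and Ly6c1 (-0.28) fell in the hippocampus at 28 days. Of 13 mural and fibroblast markers Anpep (-0.72) fell there. At the same time choroid plexus markers lay below 0 in 7 of 7 genes, with a median of -0.70 and none passing, and their part in these values was not tested.

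The third comparison set the tissues against each other. Bmp4, Olig1 and Pdgfra were higher in the frontal cortex and Enpp6 was lower, 4 of 6 members, where 74.3% of all genes tested passed (34.4% higher, 40% lower). The share of members that passed was not above that background. Bmp4 ran from 6.21 over 7.23 to 8.19 on 44 hippocampal arrays and from 6.81 over 7.73 to 8.25 on 46 cortical arrays, a difference of 0.43 ± 0.07 (adjusted p = 1.45e-07). All 4 cortical group means, from 7.52 to 7.85, stood above the 4 hippocampal means, from 7.03 to 7.47, though the arrays overlap. Olig1 differed by 0.12 ± 0.03 (adjusted p = 6.78e-05).

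Pdgfra differed by 0.10 ± 0.03 (adjusted p = 0.00253), a call lost with median scaling (0.05, adjusted p = 0.126). Enpp6 differed by -0.16 ± 0.06 (adjusted p = 0.0228), a call lost with the authors' own values (-0.04), whose quantiles are the same on all arrays of a tissue and differ between tissues (median 7.18 in the hippocampus and 7.29 in the cortex), and without the 2 animals of highest Gpr17 (-0.11). Gpr17 and Cspg4 each differed by -0.02, with 95% intervals from -0.16 to 0.12 and from -0.11 to 0.07, and did not pass. With the authors' values the sign of Cspg4 turned and it passed as higher in the cortex (0.09, adjusted p = 0.0343). Every chip held a single tissue, so chip and tissue cannot be told apart. The ASO effects did not pass as different between the tissues for any of the 6 members, where 0.0103% of all genes passed.

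The list counts that follow stand beside 74.3% of all genes that passed between the tissues, 34.4% higher and 40% lower in the cortex. Whether any list departs from these shares was not tested. Of 6 other precursor markers 3 were higher in the cortex, led by Cacng4 (0.70) and Cspg5 (0.39), and 1 was lower, Megf11 (-0.32). Of 8 other new-oligodendrocyte markers 5 were lower and 0 higher, with Mycl at -1.54, Cemip2 at -0.37 and Neu4, a sialidase, at -0.18. Of 18 myelin genes 9 were lower and 2 higher. Among BMP pathway genes 7 of 15 were higher in the cortex, among them the target Id2 (1.02), the receptor Bmpr1b (0.50) and the target Id4 (0.50), and 3 were lower, among them the secreted antagonist Chrd (-1.20). The ligand of the Pdgfra receptor, Pdgfa, was higher in the cortex by 0.11 (adjusted p = 4.19e-05).

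The members were then followed from animal to animal, with group means removed, over the 43 animals with both tissues. Gpr17 varied in step in the hippocampus and the cortex of the same animal, with Pearson r = 0.751 (permutation p = 1e-05, the smallest that 100000 permutations can give; adjusted over 6 genes 6e-05) and Spearman rho = 0.648 (permutation p = 4e-05). Olig1 followed with r = 0.506 (permutation p = 0.00097, adjusted 0.00291) and rho = 0.457 (permutation p = 0.0034), and Enpp6 with r = 0.399 (permutation p = 0.00961, adjusted 0.0192) and rho = 0.393 (permutation p = 0.0118). Without the 2 animals farthest from the hippocampal median these r were 0.666, 0.377 and 0.357. With chip means removed as well they were 0.776, 0.509 and 0.383. With group means removed, the values had the same sign in both tissues in 30, 28 and 23 of 43 animals. For Pdgfra, Bmp4 and Cspg4 this held in 30, 23 and 24 animals.

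Pdgfra (r = 0.173, rho = 0.205), Bmp4 (r = 0.116, rho = 0.130) and Cspg4 (r = -0.0904, rho = -0.0734) did not pass, with adjusted permutation p of Pearson's r from 0.415 to 0.600. The tissues were dissected from the same hemisphere and hybridised on separate chips. Animals with both tissues that shared a hippocampal chip also shared a cortical chip, so the grouping of animals by chip was the same in both tissues. For Gpr17, Olig1 and Enpp6 the r with chip means removed are given above.

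**Figure D4:**
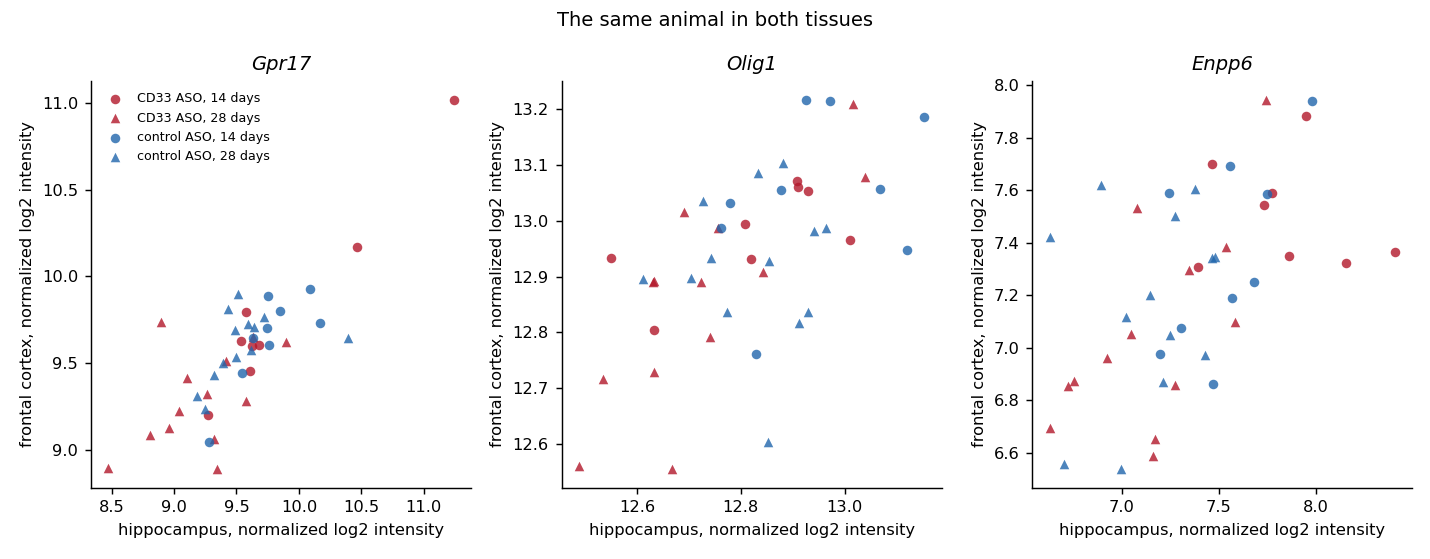
Normalized log2 intensity in the hippocampus (x axis) and the frontal cortex (y axis) of the 43 animals with both tissues, for Gpr17, Olig1 and Enpp6. Each point is an animal, with colour for the ASO and shape for the infusion time; in the Gpr17 panel 2 animals of the 14-day CD33 ASO group stand at the top right, at 11.24 and 11.02 and at 10.47 and 10.17.

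The highest Gpr17 values belonged to 2 animals of the 14-day CD33 ASO group. The first had 11.24 in the hippocampus (replicate 5) and 11.02 in the cortex (replicate 6), with unnormalized signals of 2562 and 2017 against group medians of 763 and 773. The second had 10.47 in the hippocampus (replicate 7) and 10.17 in the cortex (replicate 8). These are the 2 highest values of their group in each tissue. Dixon's test at the 95% level, run on the 4 groups of 14 days for each of 7 genes, marked 0 arrays. It takes only the highest and the lowest array of a group. The first animal's ratios were 0.393 and 0.467, below the critical 0.493, and the second animal was not tested. The gap was measured from the first animal to the second, so the test cannot decide whether the pair is outlying. The groups of 28 days, with more than 10 arrays, were not tested this way.

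Other members were not all high in these animals. Their hippocampal Enpp6, at 8.15 and 8.41, and Bmp4, at 8.10 and 8.19, were the highest of the group, while their Olig1, at 12.55 and 12.63, was the lowest. Hippocampal Pdgfra of the second animal, 9.64, was the lowest of its group. In the cortex their Enpp6, at 7.32 and 7.37, was not high against a group median of 7.37. Cortical Bmp4 of the first animal, 7.60, was the lowest of its group, and that of the second, 8.15, the highest. Without both animals Enpp6 in the hippocampus differed between 28 and 14 days by -0.46 (adjusted p = 0.0116), so its call did not rest on them.

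Within a tissue, 30 relations between members were computed and 3 passed. In the hippocampus Enpp6 and Gpr17 varied together over 44 arrays (r = 0.476, permutation p = 0.00091, adjusted 0.0129; rho = 0.493, permutation p = 0.00081; r = 0.403 without the 2 farthest arrays and 0.449 with chip means removed). In the cortex the same pair had r = 0.316 (permutation p = 0.0326, adjusted 0.196; rho = 0.365, permutation p = 0.0132) and did not pass. Over 46 cortical arrays Enpp6 and Olig1 varied together (r = 0.529, permutation p = 0.00014, adjusted 0.0042; rho = 0.497, permutation p = 0.0006; r = 0.462 without the 2 farthest and 0.647 with chip means removed).

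Pdgfra and Gpr17 ran against each other in the hippocampus (r = -0.479, permutation p = 0.00129, adjusted 0.0129; rho = -0.538, permutation p = 0.0002; r = -0.459 without the 2 farthest arrays). With chip means removed r was -0.400, and this relation no longer passed. In the cortex the same pair had r = -0.135 (permutation p = 0.369, adjusted 0.712; rho = -0.0631, permutation p = 0.673), which became 0.0604 without the 2 farthest arrays. Whether the relation differs between the tissues was not tested.

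Each member was also set against the mean of 6 marker lists in each tissue, 72 relations in all, added after the first values were seen. Enpp6 followed the other new-oligodendrocyte markers in the cortex (r = 0.673, permutation p = 1e-05, adjusted 0.00036; rho = 0.662, permutation p = 1e-05; r = 0.636 without the 2 farthest) and in the hippocampus (r = 0.425, permutation p = 0.0042, adjusted 0.0233; rho = 0.413, permutation p = 0.00587; r = 0.397 without the 2 farthest). With chip means removed these r were 0.693 and 0.473. Olig1 followed the myelin genes in the hippocampus (r = 0.529, permutation p = 0.0002, adjusted 0.00288; rho = 0.562, permutation p = 8e-05; r = 0.516 without the 2 farthest, 0.633 with chip means removed).

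Bmp4 followed instead the markers of mural cells and fibroblasts, in the hippocampus (r = 0.628, permutation p = 1e-05, adjusted 0.00036; rho = 0.640, permutation p = 1e-05; r = 0.541 without the 2 farthest) and in the cortex (r = 0.601, permutation p = 2e-05, adjusted 0.00048; rho = 0.509, permutation p = 0.0004; r = 0.653 without the 2 farthest). With chip means removed these r were 0.620 and 0.600. Pdgfra followed the same list in the hippocampus (r = 0.544, permutation p = 0.00014, adjusted 0.00252; rho = 0.477, permutation p = 0.00127; r = 0.418 without the 2 farthest, 0.520 with chip means removed). In the cortex Pdgfra did not pass against this list (r = 0.172, permutation p = 0.252, adjusted 0.413). Pdgfra ran against the other precursor markers in the hippocampus (r = -0.382, permutation p = 0.0111, adjusted 0.0443). In the cortex it followed the new-oligodendrocyte markers (r = 0.420, permutation p = 0.00334, adjusted 0.0219). Neither passed in the other tissue (r = 0.3 and -0.0566). Not every relation that passed is named here. Which cells these Bmp4 and Pdgfra levels came from was not tested.

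By likeness of their residuals within each tissue, with group and chip means removed, the 3 genes most like Enpp6 of all 9741 were Nkx2-2 (mean r over both tissues 0.604), Bcas1 (0.601) and Cnp, an enzyme of myelinating cells (0.600). Nearest to Olig1 were Prr18 (0.693), Opalin (0.686) and Gpc5 (0.662), and nearest to Bmp4 were Serping1, a complement inhibitor (0.755), Gstm2 (0.710) and Ogn, a matrix proteoglycan (0.678). Nearest to Pdgfra were Arsg (0.545), Slc22a5 (0.540) and Slc12a2 (0.532). For Cspg4 no gene reached more than 0.383 (Zfp386).

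Nearest to Gpr17 were Lims2 (0.760), the neuropeptide gene Npy (0.653) and Trak2 (0.619), which became 0.672, 0.541 and 0.432 without the 2 animals of highest Gpr17. In the first of those animals Lims2 stood at 10.48 in the hippocampus and 10.36 in the cortex, the highest of the 14-day arrays of each tissue. Gpr17 lies within the span of Lims2 in RefSeq (chromosome 18, 31922293 to 31958620), and whether the 2 probes can detect the same transcripts was not tested. Enpp6 ranked 134 and Olig1 5544 among the genes most like Gpr17.

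Olig2 (chromosome 16, 91225550 to 91228677) and Sox10 (chromosome 15, 79154913 to 79164490) remain to be accounted for. The 2 arrays on which the Olig2 probe was detected were both from the cortex of 28-day CD33 ASO animals. Its normalized values ran from 4.69 to 6.08, and group means lay between 5.12 and 5.34. This probe gives no usable level for Olig2, and neither gene entered the main comparisons. Olig2 entered only the alternative without a filter on dim probes and passed in no contrast there. Between 28 and 14 days in the hippocampus it differed by 0.10 (limma, adjusted p = 0.678).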

How the data were processed

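Labelled RNA was hybridised to Illumina mouse bead arrays. The authors' deposited table holds, for 25697 probes on each of 90 arrays, a signal intensity and, per the file headers, a detection p-value. The intensities are read as background-subtracted because some lie below 0, such as -0.84 for the Olig2 probe. BeadStudio, GenomeStudio and Partek are the tools per the submitters' processing notes, their versions not given in the sources used here. Another table of 19542 probes deposited by the authors holds processed values read as log2 from their range and used as an alternative.

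Intensities were corrected with limma 3.58.1 (R 4.3.3; normexp on negative-control estimates from the detection p-values, offset 16), quantile-normalized over 90 arrays and put on a log2 scale. Probes detected at p below 0.01 on at least 9 arrays were kept (14081), and the brightest probe stood for a gene (9741 genes). Of all probes 18348 had 1 gene symbol, 0 several, and 7349 were unnamed here. Each tissue was fitted with 4 group means (lmFit, eBayes), the tissue contrast over 90 arrays with the animal number of the labels as random block (correlation 0.128). P-values were adjusted by Benjamini-Hochberg over all 9741 genes, with a threshold of 0.05. The number of animals limits the precision. Correlations used residuals from group means and 100000 permutations, two-sided.

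Genes are named as members, as list genes (up to 4 past the threshold by size, or the 2 of smallest p), as the 3 most alike, or where a count of 5 or fewer needed names; the myelin genes of the animal means were picked with their values known. The members and lists were chosen with earlier results of these data known. The fitting code was tested on simulated data. Alternatives were other normalizations, offsets, filters and probe rules, the authors' values, chip or replicate blocks, array weights and left-out arrays.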

Additional observations from a re-analysis of the deposited data

How the results depend on the processing

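The call of Enpp6 between 28 and 14 days in the hippocampus held under 14 of 14 alternatives (-0.55 to -0.44, adjusted p up to 0.0116) and without each of 44 arrays (adjusted p up to 0.00714). Enpp6 has 1 probe, detected on 90 of 90 arrays. The alternatives that changed only the probe filter or probe rule therefore left its values as they were and could move only its p-values. Counts of members that passed moved in few cases. In the hippocampus between durations 2 passed with array weights and 2 without the 28-day CD33 ASO animal with Cd33 in the control range, and leaving out single arrays gave 1 to 2; the added member was Gpr17. Replicate numbers are shared between groups and were not taken to pair the arrays. Same-number pairs had a mean r of 0.0378 in the hippocampus and 0.114 in the cortex, other pairs -0.00301 and -0.00916. Above 0.1 lay 20 of 58 and 27 of 59 same-number pairs, and 6 of 44 and 6 of 46 arrays correlated best with their own number. Of the same-number pairs 18 and 27 shared a chip, and pairs on the same chip had a mean r of 0.0775 and 0.164. Whether the numbers pair arrays beyond a shared chip was not tested. With the replicate number as a block 1 member, Olig1 (-0.18), passed between durations in the cortex.

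Cspg4 between tissues changed both sign and call with the authors' values, to 0.0902 (adjusted p = 0.0343). The other values whose sign turned passed under neither setting. For Cspg4 between durations the replicate block gave 0.0437 in the cortex and -0.00849 in the hippocampus, and single left-out arrays gave -0.0471 to 0.00566 and -0.0236 to 0.0348. With array weights, Bmp4 gave -0.0468 (CD33 against control ASO, hippocampus, mean of durations) and 0.00426 (difference of ASO effects between durations, cortex), Gpr17 -0.0101 (hippocampus, 14 days), and Olig1 -0.00185 and -0.0297 (difference between durations, cortex and hippocampus). Without the animal with Cd33 in the control range, Bmp4 gave -0.000116 (hippocampus, mean), Enpp6 -0.000474 (cortex, mean) and -0.0411 (hippocampus, 28 days), and Olig1 -0.00930 and -0.00952 (difference between durations, cortex and hippocampus). Without the 2 animals of highest Gpr17, Gpr17 gave -0.190 and -0.0988 (14 days, hippocampus and cortex), Bmp4 -0.0902 and Pdgfra 0.0151 (hippocampus, mean), and the differences between durations were -0.0183 for Cspg4 and -0.0206 for Pdgfra (cortex) and -0.0151 and -0.0522 for Olig1 (cortex and hippocampus). Without the hippocampal array least like its group, Bmp4 gave -0.0123 (mean). The authors' values gave 0.0513 for Gpr17 between tissues, and median scaling -0.00113 for Olig1 in the difference of ASO effects between tissues. The cause of these turns was not tested. The correlation of Pdgfra with Gpr17 lost its call with chip means removed (-0.400). Signal over background limits Olig2.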
